A study of Mus musculus with 15 samples.

Results

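The genes of the cytoplasmic ribosome were followed through cultured mouse eosinophils. They were taken by symbol: every gene named Rpl or Rps with a number and at most 1 of the letters a, x or l after it, together with Rplp0, Rplp1, Rplp2 and Rpsa. The rule found 82 of the 25101 genes in the deposited count tables. Of these, 76 encode the standard proteins of the ribosome and are called core genes here, 46 in the large and 30 in the small subunit. The other 6 are duplicated copies with an l after the parent's name: Rpl3l, Rpl10l, Rpl32l, Rpl39l, Rps4l and Rps27l. Rps3a1, Fau and Rack1 also encode proteins of the ribosome, and Rpl36al, Rpl22l1 and Rpl7l1 are further copies. The symbol rule leaves these 6 out, and they are given beside the members.

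The cytoplasmic ribosome makes all proteins encoded in the nucleus, and each of its particles needs 1 set of ribosomal proteins around ribosomal RNA. The messages of these proteins belong to the most uniform families of a mammalian cell. They start with a run of pyrimidines, the terminal oligopyrimidine or TOP element, through which mTORC1 signalling and the protein Larp1 control their translation. Eosinophils are granulocytes that pack basic proteins and peroxidase into granules while they mature in the bone marrow.

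The study mapped chromatin and RNA in eosinophils grown from mouse bone marrow, with 15 samples in 8 groups, and only the RNA samples give values for these genes. Unselected marrow progenitors of BALB/c mice were cultured for 14 days. They received stem cell factor and FLT3 ligand at 100 ng/mL each, and from day 4 interleukin 5 at 10 ng/mL instead. The 2 RNA libraries form 1 group, replicates 1 and 2, with totals of 40306679 and 30465490 counts, and share a sequencing run and lane per the file headers. Nothing in the labels says whether they came from separate cultures, so how much of the spread between them is technical is not known. The labels name no selection of eosinophils before the RNA was taken.

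Count tables of a macrophage and a neutrophil library from outside the study were deposited alongside, with totals of 106940777 and 6390310 counts. For these, no strain, age, treatment, library kit or laboratory is stated, so cell type cannot be told apart from any of these. Each cell type is 1 library, and no test between cell types was possible. Markers fit the names in part. The 10 eosinophil markers (such as Prg2 and Epx) summed to 13376 and 13634 CPM (a gene's count over the library's total, per 1e6 counts) in the eosinophil replicates, 3.42 in the macrophage and 338 in the neutrophil library. The 11 macrophage markers summed to 4029 and 4402, 10125 and 736 CPM, and the 12 neutrophil markers to 2210 and 1910, 291 and 2539 CPM, in the same order. The eosinophil cultures thus also held messages from the macrophage and neutrophil lists. Adgre1 led the macrophage sum in the eosinophils, at 1357 and 1558 CPM against 1667 CPM in the macrophage library. Of 10 macrophage markers compared, Msr1 alone was more than 2-fold higher in both eosinophil replicates than in the macrophage library, and 7 were lower. Of all genes compared there, 24.5% were higher and 17.4% lower. Of the 12 neutrophil markers, 5 were more than 2-fold higher in both eosinophil replicates than in the neutrophil library and 5 lower. The same held for 28.2% and 24.7% of all genes compared. Ngp, Retnlg and Ly6g were among the higher and Cxcr2 and Csf3r among the lower. Marco was at 0 in the neutrophil library and in both eosinophil replicates, and C1qb in the neutrophil library only. Summed stromal markers, led by the collagen genes Col1a1 and Col1a2, reached 2594 CPM in the first and 771 CPM in the second replicate, against 277 and 90.9 CPM in the macrophage and neutrophil libraries. The neutrophil library also stood apart in genes of other families, with Gapdh at 19.2 CPM against 1456 and 1557 CPM in the eosinophils and 403 CPM in the macrophages.

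The annotated start sites of the members were searched for pyrimidine runs and promoter motifs. A RefSeq table of promoters on the GRCm38.p6 build, with 250 bases before and 50 after each annotated start, held 66 entries for 56 of the 76 core genes. The windows printed here hold 30 bases around an annotated start, 5′ to 3′ on the gene's strand, with the longest pyrimidine run in capitals. They were chosen for a long run, and Rps6 was added as a gene named by a fixed list.
Rpl7a, chr2:26910792-26910821, plus strand: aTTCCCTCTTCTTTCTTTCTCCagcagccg
Rpl27a, chr7:109519180-109519209, plus strand: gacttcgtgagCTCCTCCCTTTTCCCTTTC
Rpl35, chr2:39005117-39005146, minus strand: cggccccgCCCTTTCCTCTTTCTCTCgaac
Rpl13a, chr7:45128731-45128760, minus strand: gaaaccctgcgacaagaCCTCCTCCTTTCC
Rps6, chr4:86857353-86857382, minus strand: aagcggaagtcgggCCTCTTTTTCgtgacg
Rpl34, chr3:130730323-130730352, minus strand: CCTTCCTTTTCCTCTTCCggggacggtgct

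A run of 8 or more pyrimidines within 25 bases of the start was present in 31 of the 66 core entries (47.0%), against 19.7% of all 32851 entries in the table. The median longest run was 7 bases in the core entries and 5 in all entries. These are annotated starts, which can lie some bases away from the start used in these cells.

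In the 300 bases of the promoter entries, the core of the site of ETS transcription factors, CCGGAA on either strand, was present in 48.5% of the core entries and 14.9% of all entries. The 3 stretches that follow are shown because their genes return with the results, with the motif or its reverse complement in capitals.
Rps6, chr4:86857441-86857470, minus strand: gttaatctacgcCCGGAAgtaacgcccctc
Rpl41, chr10:128549207-128549236, minus strand: ctagtaaggcagCCGGAAgtcgctgtctcg
Rps2, chr17:24719925-24719954, plus strand: atttatacgtccTTCCGGctggtgtagggc

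The other motifs were searched on both strands of the same entries. AAGATGG, the core of the YY1 site, was in 16.7% of core entries and 6.34% of all entries, and GGGCGG, bound by the SP family, in 60.6% and 35.7%. TATAAA, the TATA box, was in 9.09% and 13.6%. TTCCGG, the reverse complement of the ETS letters, starts with pyrimidines and can overlap a pyrimidine run. A match describes the letters and not binding, and no binding data were set against these starts.

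Ribosomal protein genes took 2.55% of all counts in eosinophil replicate 1 (1026872 counts; 95% exact Clopper-Pearson interval 2.543 to 2.553) and 2.50% in replicate 2 (762281 counts; 2.497 to 2.508). Their share was 2.08% in the macrophage library (2.082 to 2.088) and 0.385% in the neutrophil library (0.3799 to 0.3895). The eosinophil mean of 2.52% ± 0.0322 (SD, n = 2) was 1.21 times the macrophage and 6.56 times the neutrophil share. The replicates differed by a factor of 1.02. Intervals cover counting error only, since reads without molecular identifiers are not independent molecules. The difference from the macrophage library exceeded the spread between the replicates, but the spread between macrophage libraries is not known. These are bulk libraries, in which fewer cells of a type and less RNA per cell cannot be told apart.

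The subunits kept nearly the same proportions everywhere. Large subunit genes took 59.2% and 58.5% of the core counts in the eosinophil replicates, 59.6% in the macrophage and 59.0% in the neutrophil library. The small subunit genes took the rest.

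Of the 76 core genes, 73 were detected, meaning 1 CPM or more in both eosinophil replicates, and of all 82 members 75 were, against 47.5% of all genes in the table. The 3 core genes not detected were Rpl26, Rpl30 and Rps27. At 100 CPM or more in both replicates stood 70 core genes (92.1%), against 9.45% of all genes. The median core gene stood at 321 and 314 CPM in the eosinophil replicates, 237 CPM in the macrophage and 44.4 CPM in the neutrophil library. For comparison, the median of all genes at 1 CPM or more was 29.6, 29.0, 32.1 and 44.8 CPM in the same order. The core genes of the neutrophil library were thus at the level of its median gene, and those of the other libraries lay well above theirs.

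**Figure D1:**
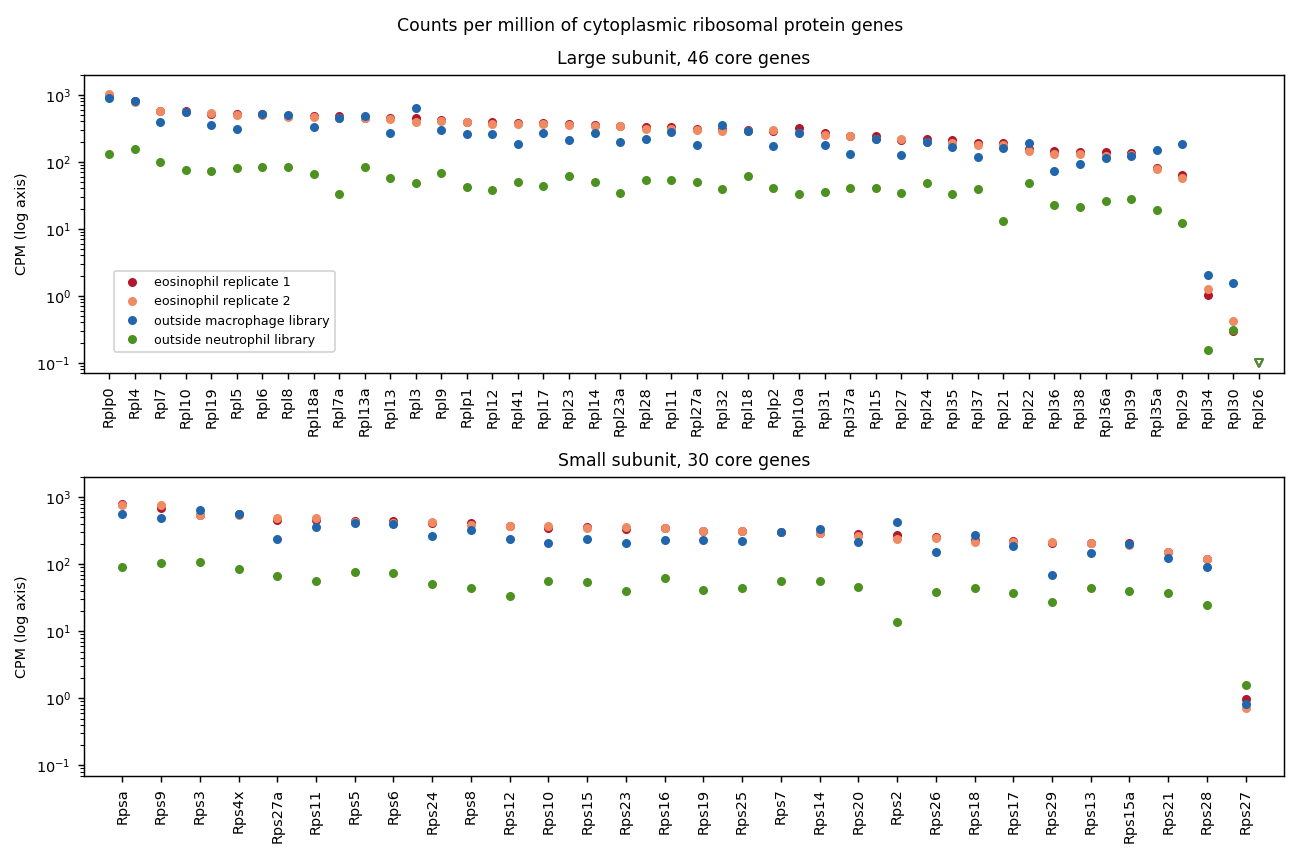
CPM (log axis) of the 46 large and 30 small subunit core genes in the 2 eosinophil replicates and the 2 outside libraries, ordered by the eosinophil mean within each subunit. Open triangles at the foot stand for values under 0.1 CPM (Rpl26 in every library), and the neutrophil points lie below the others for nearly every gene.

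CPM is not corrected for the length of a message, so differences between genes mix level and length, and genes are not ranked here. The plot of CPM by gene and library shows a narrow band with 4 genes far below it. Among the 70 core genes at 100 CPM or more, mean values ran from 120 CPM (Rps28) to 991 CPM (Rplp0), with quartiles at 235 and 440 CPM around a median of 344 CPM. Of these, 59 of 70 lay within 2-fold of the median. The ratio of upper to lower quartile over all 76 core genes was 2.11 and 2.01 in the eosinophil replicates, 2.00 in the macrophage and 1.81 in the neutrophil library. Across the 73 core genes with 10 or more counts in every library, Pearson's r of log2 CPM was 0.998 between the eosinophil replicates. It was 0.927 and 0.920 between each replicate and the macrophage library, 0.887 and 0.890 with the neutrophil library, and 0.830 between the outside libraries. The genes share their length and their copies across libraries, so these values describe a common profile and carry no test.

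Rps6, the small subunit protein that S6 kinase phosphorylates, stood at 442 and 420 CPM in the eosinophil replicates, 394 CPM in the macrophage and 75.3 CPM in the neutrophil library. Rpsa, the small subunit protein also known as the laminin receptor, stood at 793 and 757, 560 and 91.1 CPM. Rps19, the gene most often mutated in Diamond-Blackfan anaemia, stood at 316 and 317, 232 and 42.1 CPM. All 3 had the same order of CPM, with eosinophils highest and neutrophils lowest, though with TMM scaling (described with the macrophage comparison) Rps6 had a log2 ratio of eosinophil to macrophage of -0.09.

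Rpl5, which with Rpl11 and 5S RNA binds Mdm2 and so stabilises p53, stood at 514 and 504 CPM in the eosinophils, 304 CPM in the macrophage and 80.7 CPM in the neutrophil library. Its partner Rpl11 stood at 326 and 312, 282 and 53.0 CPM. Rpl10, a late addition to the large subunit, stood at 566 and 556, 553 and 74.6 CPM. The macrophage value of Rpl10 lay just below both eosinophil replicates, with a log2 ratio of eosinophil to macrophage of 0.02, and of -0.20 with TMM scaling. Rpl13a, known from the GAIT complex that silences inflammatory messages, stood at 445 and 442 CPM in the eosinophils, 482 CPM in the macrophages and 82.9 CPM in the neutrophils. Rpl38, known for translation of Hox messages, stood at 138 and 130, 92.2 and 21.4 CPM. Rpl13a was thus lower in the eosinophils than in the macrophages, and Rpl38 higher.

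The stalk of the large subunit, which recruits elongation factors, is built from Rplp0, Rplp1 and Rplp2. Rplp0, the base of the stalk, stood at 941 and 1041 CPM in the eosinophils, 903 CPM in the macrophages and 130 CPM in the neutrophils. Rplp1 stood at 396 and 390, 263 and 42.1 CPM, and Rplp2 at 287 and 301, 174 and 40.5 CPM. Together the stalk genes made up 6.38% and 6.94% of the core counts in the eosinophil replicates, 6.45% in the macrophage and 5.60% in the neutrophil library. The macrophage value fell between the eosinophil replicates and the neutrophil value below them.

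Among the family genes outside the symbol rule, Rack1, the scaffold on the small subunit, stood at 679 and 650 CPM in the eosinophils, 886 CPM in the macrophages and 124 CPM in the neutrophils. Fau, whose product is cut into a ubiquitin-like protein and an S30 protein, stood at 674 and 699, 354 and 116 CPM. Rps3a1 stood at 502 and 494, 317 and 84.3 CPM. These 3 had the range of the core genes, so the rule misses them by name and not by level.

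A group of 4 core genes was nearly empty in every library. Rpl26 had 0 and 0 counts in the eosinophils, 2 in the macrophages and 0 in the neutrophils. A count of 0 allows up to 0.0744 and 0.0985 CPM in the eosinophil replicates, taking 3 counts as the limit. Rpl30 had 12 and 13, 164 and 2 counts. Rps27 had 40 and 22 counts in the eosinophils, 88 in the macrophages and 10 in the neutrophils. Rpl34 had 41 and 38, 218 and 1 counts. All 4 encode standard proteins of the ribosome. Their low counts were common to libraries of different origin. RefSeq names 6 pseudogenes after Rpl26, 10 after Rpl30, 2 after Rps27 and 2 after Rpl34, and the copies Rps27rt and Rpl34-ps1, which the tables do list, were at 0 in all 4 libraries. How reads that match several places were counted is not stated, and its part in these low counts was not tested. Values of genes with such copies, among them Rpl31 with 24 named pseudogenes, Rps12 with 23, Rpl21 with 15, Rpl7a with 14 and Rps2 and Rpsa with 12 each, are uncertain for the same reason.

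The tables list 9 named pseudogenes or retrocopies of ribosomal protein genes. They summed to 25.7 and 18.1 CPM in the eosinophil replicates, 155 CPM in the macrophage and 92.3 CPM in the neutrophil library. Rpl14-ps1 stood at 8.29 and 5.38, 82.0 and 21.0 CPM, while its parent Rpl14 stood at 357 and 342, 270 and 49.1 CPM. The sum was thus higher in both outside libraries. Of the single copies, Rpl34-ps1, Rplp2-ps1 and Rps27rt were at 0 in every library, and Rps19-ps3 was level between eosinophil replicate 1 and the macrophages (1.54 and 1.51 CPM).

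The 2 eosinophil replicates differed little in these genes. None of the 73 detected core genes was more than 25% higher in replicate 1, against 14.2% of all detected genes, and none was more than 25% higher in replicate 2, against 2.11%. Over the 70 core genes at 100 CPM or more, the SD of the log2 ratio was 0.08, and it was 0.30 over the 1843 other genes whose mean CPM lay within the range of these 70. The larger SD includes a far tail, up to 10.56. The quartiles were -0.01 and 0.09 in the core genes and -0.08 and 0.05 in the others, so the middle of both sets had a similar width. Over the 73 core genes with 10 or more counts in every library, the exact counting interval of the ratio lay above 1 in 39 and below 1 in 10. At this depth, differences of a few percent are larger than counting error.

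**Figure D2:**
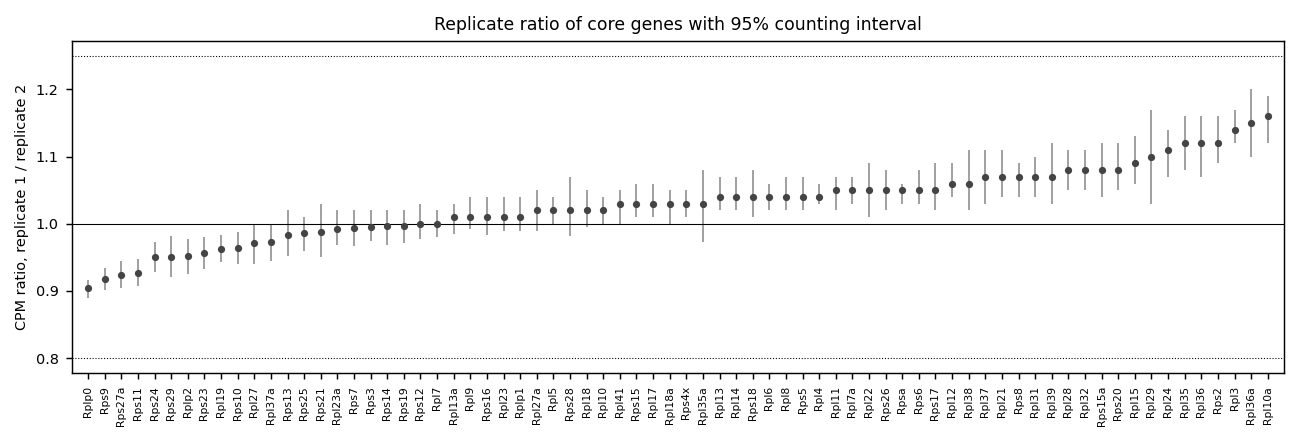
CPM ratio of eosinophil replicate 1 to replicate 2 for 72 core genes with 10 or more counts in every library, with the 95% exact counting interval as a bar. Rps27, whose interval is wide, is left out. The dotted lines mark a difference of 25% either way, and no gene passes them.

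The plot of replicate ratios runs from Rplp0 to Rpl10a. Among the 73 genes with 10 or more counts in every library, Rplp0 had the lowest ratio of replicate 1 to replicate 2, 0.904 (0.890 to 0.917). Rpl34 and Rpl30, outside this filter, had ratios of 0.816 (0.512 to 1.30) and 0.698 (0.291 to 1.66) on few counts. Rps9, a core component of the small subunit, had 698 and 761 CPM (ratio 0.918), and Rps27a, a ubiquitin fused to an S31 protein, had 455 and 492 CPM (0.924). At the other end, Rpl10a, which forms the stalk at the exit site of the ribosome, had 315 and 273 CPM (1.16, 1.12 to 1.19), and Rpl36a had 138 and 121 CPM (1.15, 1.10 to 1.20). The ratio of Rps27, 1.37, rests on 40 and 22 counts and has an interval from 0.797 to 2.43. The stromal markers moved between the replicates by far more than any of these genes, and their part in these small differences was not tested.

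Against the macrophage library, few core genes moved past 2-fold. With a gene compared at 1 CPM or more in both eosinophil replicates or in the outside library, 1 of 74 core genes was more than 2-fold higher in both eosinophil replicates and 2 of 74 were more than 2-fold lower. The same held for 24.5% and 17.4% of the 12392 genes compared. By any amount, 55 of 74 were higher in both replicates and 15 of 74 lower. The median difference over the 73 core genes with 10 or more counts in every library was 0.38 on the log2 scale (1.31-fold), with an SD over genes of 0.48. Over all 11959 genes compared with 10 or more counts, the median was 0.01 and the SD 1.73. Other genes with a mean eosinophil CPM in the range of the 70 core genes at 100 CPM or more numbered 1827. Their median was 0.28 (1.21-fold), close to that of the core genes, and their SD 1.92. They were picked by their level in the eosinophils.

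The size of the small core difference from the macrophage library depended on the scaling. With edgeR's TMM factors, which move the median of all genes by -0.22, the core median was 0.16, and with DESeq2's size factors, which move it by -0.10, it was 0.28. The core median minus that of all genes was 0.38 under each of the 3 scalings. A scaling factor moves all genes of a library alike, so this value was nearly fixed in advance and carries no check. Genes close to equality changed sign with TMM. Among them, Rps6 went from 0.13 to -0.09, Rplp0 from 0.13 to -0.08, Rpl11 from 0.18 to -0.04 and Rpl10 from 0.02 to -0.20. Rpl10a, Rpl21, Rpl36a, Rpl7a and Rps27 changed sign too. Core genes higher in both replicates by any amount numbered 42 with TMM and 47 with DESeq2's size factors, against 55 with file totals. Of the genes past 2-fold, the share higher in eosinophils was 58.5% with file totals, 48.4% with TMM and 53.9% with DESeq2's size factors.

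Rps29, a small zinc-binding protein of the small subunit, was the gene more than 2-fold higher. It stood at 206 and 217 CPM in the eosinophils against 69.2 CPM in the macrophages (3.06-fold). Rpl29, a small basic protein of the large subunit, stood at 63.8 and 58.1 CPM against 186 CPM, and was 3.05-fold higher in the macrophages. The other gene past 2-fold on the lower side with file totals was Rpl30, with few counts. Rpl35a was close to the threshold, with a log2 ratio of -0.93, and of -1.15 with TMM. Near the threshold, Rpl41 and Rpl36 also passed 2-fold when replicate 2 was left out (3 higher in all), and Rps27a when replicate 1 was (2 in all). In both Rps29 and Rpl29 the eosinophil replicates lay close together and far from the macrophage value.

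Composition was also compared, as each gene's share of the core counts, which removes the difference in total. Shares higher in eosinophils were led by Rps29, with 0.811% and 0.868% against 0.333% in the macrophages, and Rpl41, the smallest protein of the ribosome, with 1.49% and 1.47% against 0.897%. Rps27a followed with 1.79% and 1.97% against 1.16%, and Rpl36 with 0.576% and 0.525% against 0.349%. Shares lower in eosinophils were led by Rpl29, with 0.251% and 0.233% against 0.895%, and Rpl35a, with 0.317% and 0.314% against 0.727%. Rps2, a protein near the entry site of the message, followed with 1.06% and 0.960% against 2.06%, and Rpl3, near the peptidyl transferase centre, with 1.77% and 1.58% against 3.07%. The eosinophil replicates stayed on the same side of the macrophage value in all 8.

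Against the neutrophil library the core genes differed almost as a block. In both eosinophil replicates 73 of 74 core genes compared were more than 2-fold higher and 0 of 74 more than 2-fold lower, against 28.2% and 24.7% of the 12580 genes compared. The count of 73 includes Rpl34, with 1 count in the neutrophil library. The exception was Rps27, at 0.992 and 0.722 CPM against 1.56 CPM, which rests on 10 counts in the neutrophil library. The median difference of the 73 core genes with 10 or more counts in every library was 2.64 on the log2 scale (6.21-fold), with an SD of 0.60. Over all 10261 genes compared with 10 or more counts, the median was -0.35 and the SD 1.59. Over 1801 other genes picked by eosinophil CPM as in the macrophage comparison, it was 0.02 (1.01-fold) and the SD 1.30. TMM moved the median of all genes by 0.31 and the core median to 2.95, and DESeq2's size factors moved them by 0.18 and to 2.82. The core median minus that of all genes was 2.98 under each, again a value that such scaling leaves nearly fixed. The share of genes past 2-fold that were higher in eosinophils was 53.3% with file totals, 64.9% with TMM and 60.6% with DESeq2's size factors.

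**Figure D3:**
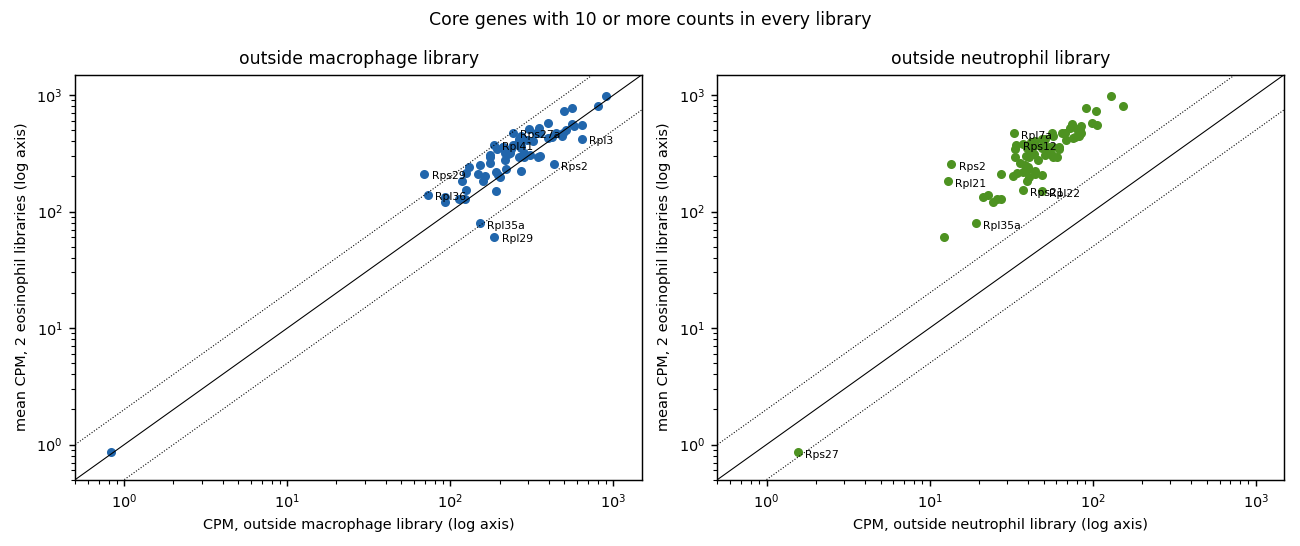
Mean CPM of the 2 eosinophil replicates (log axis) against CPM in the outside macrophage library (left) and neutrophil library (right, log axes) for 73 core genes with 10 or more counts in every library. The solid line marks equality and the dotted lines a 2-fold difference; named are the 4 genes whose share of the core counts differed most in each direction. Points lie along the line on the left and above the upper dotted line on the right, Rps27 apart.

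Both subunits took part, as the scatter of eosinophil against outside CPM shows. The median was 2.62 on the log2 scale (6.13-fold) for 43 large subunit genes and 2.68 (6.40-fold) for 30 small subunit genes. Rps2 differed most, with 270 and 240 CPM in the eosinophils against 13.6 CPM in the neutrophils (18.7-fold, on 87 counts). Rpl7a stood at 479 and 456 CPM against 32.9 CPM (14.2-fold), and Rpl21 at 188 and 175 CPM against 13.0 CPM (14.0-fold, on 83 counts). Rps12 stood at 376 and 375 CPM against 33.8 CPM (11.1-fold). These 4 are among the genes with many named pseudogenes given above, as are Rpl31 (7.33-fold) and Rpsa (8.51-fold). Rpl23a (13 named pseudogenes, 10.2-fold), Rps19 (13, 7.53-fold) and Rpl19 (12, 7.20-fold) also have many. All of these genes, which have 12 or more named pseudogenes, lay above the core median of 6.21-fold. Of genes with somewhat fewer, Rpl17 (11, 8.41-fold) lay above it. Rpl36 (10, 6.07-fold), Rpl9 (9, 6.04-fold) and Rps15a (8, 4.92-fold) lay below. Some genes with few lay above too, such as Rplp1 (1, 9.34-fold) and Rps23 (2, 8.80-fold). The part of such copies in these values was not tested. At the other end, Rpl22, a large subunit protein that binds other RNAs too, stood at 153 and 146 CPM against 49.0 CPM (3.05-fold). Rps21 stood at 151 and 153 CPM against 37.2 CPM (4.09-fold), and Rpl35a at 80.5 and 78.4 CPM against 19.2 CPM (4.13-fold). Among the core genes with 10 or more counts in every library, Rps27 aside, all were thus at least 3.05-fold higher in the eosinophil mean. Rpl30, with 2 counts in the neutrophil library, is outside this filter and stood at 0.298 and 0.427 CPM against 0.313 CPM.

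Genes of other kinds also differed widely in the neutrophil library, in both directions. Sorl1, a long gene for a sorting receptor, stood at 1196 CPM in the neutrophil library against 130 and 155 CPM in the eosinophils. Actb, the gene of cytoplasmic actin, stood at 333 CPM against 4011 and 4761 CPM, and Gapdh was low as given above. What sets this library apart, and its part in the ribosomal protein values, was not tested. The proliferation markers summed to 1296 and 1101 CPM in the eosinophil replicates, 490 CPM in the macrophage and 348 CPM in the neutrophil library, and their part was not tested either.

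Other families set the difference in context. Of NADH dehydrogenase subunits, also short and abundant messages, 4 of 35 compared were more than 2-fold higher in the eosinophils than in the neutrophil library and 0 lower, with a median of 1.23-fold. Of proteasome subunits, 1 of 37 was higher and 1 lower, with a median of 1.06-fold. Of mitochondrial ribosomal proteins, 17 of 78 were higher and 5 lower, with a median of 1.14-fold over the 76 with enough counts. The median of all genes compared was 0.786-fold, so these families lay somewhat above it and the cytoplasmic ribosomal proteins, at 6.21-fold, far above.

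Of the lists of genes that work with the ribosome, some lay between these families and the core genes and others did not. All 7 elongation factors compared were more than 2-fold higher than in the neutrophil library. The median was 3.54-fold over the 6 with 10 or more counts, without Eef1e1. Eef1a1, which brings aminoacyl-tRNA to the ribosome, stood at 2315 and 2326 CPM against 235 CPM, and Eef2, which moves the ribosome along the message, at 1819 and 1792 CPM against 376 CPM. Both also carry TOP elements, and the list of elongation factors further holds Eif5a and the synthetase-complex protein Eef1e1. Of 15 other TOP messages compared, 12 were higher and 0 lower, with a median of 3.18-fold, among them Tpt1 with 955 and 1043 CPM against 110 CPM. The elongation factors Eef1a1 and Eef2 and the scaffold Rack1 are counted in this list too. Eif4b, also a TOP message, was not past 2-fold, with 418 and 406 CPM against 371 CPM.

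Ribosome biogenesis genes were higher in 19 of 31 and lower in 0, with a median of 2.51-fold over the 29 with 10 or more counts. Fbl, the methyltransferase of ribosomal RNA, stood at 99.0 and 103 CPM against 11.7 CPM, and Ncl, nucleolin, at 418 and 391 CPM against 185 CPM. Of initiation factors, 4 of 27 were higher and 0 lower, with a median of 1.48-fold. Subunits of RNA polymerase I, which transcribes ribosomal RNA, were higher in 1 of 16 and lower in 2, with a median of 0.865-fold. Regulators of mTORC1 and TOP translation were higher in 2 of 15 and lower in 2. Their median was 0.725-fold over the 14 with 10 or more counts, without Myc. Myc, which activates ribosome genes, was one of the higher, with 56.0 and 35.1 CPM against 0.313 CPM, the neutrophil value being 2 counts. Larp1 was level, at 137 and 122 CPM against 133 CPM. Ribosome-associated chaperones had a median of 1.10-fold.

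Against the macrophage library the order of these families was different. Elongation factors had a median of 0.747-fold and other TOP messages of 0.840-fold, both below the core genes' 1.31-fold, though single genes went either way. Eef2 stood at 3328 CPM in the macrophage library, and Eef1a1 at 3482 CPM. Of the elongation factors 1 of 8 compared was more than 2-fold lower and 0 higher, and of the other TOP messages 1 of 15 and 0. Npm1, a nucleolar chaperone, was among those above equality, with 267 and 222 CPM in the eosinophils against 131 CPM. Ribosome biogenesis genes had a median of 1.02-fold, with 3 of 31 higher and 1 lower. Higher were Nop58, a protein of the box C/D particle, at 45.1 and 39.6 CPM against 8.01 CPM, Wdr43 at 50.0 and 45.2 CPM against 17.9 CPM, and Ncl at 164 CPM in the macrophages. Mitochondrial ribosomal proteins had a median of 0.758-fold and proteasome subunits of 0.770-fold.

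**Figure D4:**
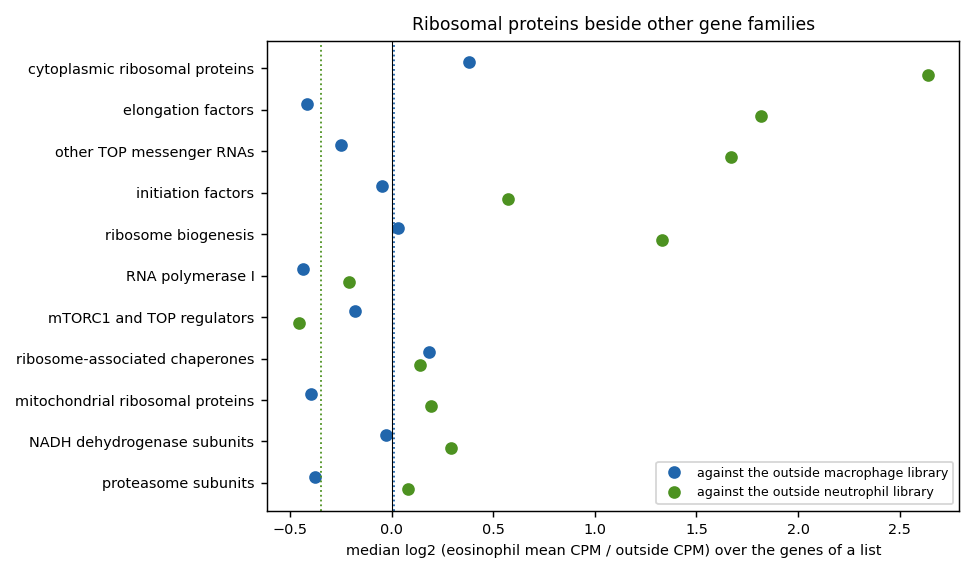
Median over each gene list of log2 eosinophil mean CPM over outside CPM, against the macrophage library (blue) and the neutrophil library (green); dotted lines mark the median of all genes with 10 or more counts. Cytoplasmic ribosomal proteins lie at 0.38 and 2.64, to the right of every other list shown in both comparisons.

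The plot of family medians counts some genes in more than 1 list. The lists were chosen with results of these data known, and the NADH dehydrogenase and proteasome lists were added after values had been seen.

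The 6 paralogues among the members were low or absent, with 1 exception. Rps27l and Rpl3l, 2 of 6, were detected in both eosinophil replicates. Against the macrophage library, 1 of 5 compared was more than 2-fold higher in eosinophils and 1 lower, against 24.5% and 17.4% of all genes compared. Against the neutrophil library 1 of 3 was higher and 2 were lower, against 28.2% and 24.7% of all genes compared. With so few genes, these counts are not set apart from the background.

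Rps27l, a p53 target that can take the place of Rps27, stood at 47.0 and 42.1 CPM in the eosinophils, 57.6 CPM in the macrophages and 19.4 CPM in the neutrophils. With its parent nearly empty, it took 97.9% (exact interval 97.2 to 98.5) and 98.3% (97.5 to 98.9) of the counts of the pair in the eosinophil replicates, 98.6% (98.3 to 98.9) in the macrophage and 92.5% (86.7 to 96.4) in the neutrophil library. These shares rest on the near-absence of Rps27 counts in every library.

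Rpl3l, the copy of Rpl3 known from heart and skeletal muscle, stood at 3.65 and 3.15 CPM in the eosinophils (147 and 96 counts). It stood at 0.112 CPM in the macrophages (12 counts) and 15.6 CPM in the neutrophils (100 counts). Its parent Rpl3 stood at 450 and 393, 639 and 49.0 CPM. Rpl3l thus took 0.804% (0.679 to 0.944) and 0.795% (0.644 to 0.969) of the counts of the pair in the eosinophil replicates, 0.0176% (0.00908 to 0.0307) in the macrophage and 24.2% (20.2 to 28.6) in the neutrophil library. It was highest in the library where its parent was lowest. In the RefSeq gene order on GRCm38.p6, Rpl3l lies between Ndufb10 and Msrb1, with Rps2 next to Ndufb10. Whether its counts came from its own transcript or from a neighbour's cannot be told from counts per gene.

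Rpl10l, the testis copy of Rpl10, had 0 counts in all 4 libraries. Rpl39l, a copy known from sperm cells, stood at 3.37 and 0.722 CPM in the eosinophils (136 and 22 counts), 1.08 CPM in the macrophages and 0 in the neutrophils. Its replicate ratio of 4.67 (2.96 to 7.70) was outside the range of all core genes with 10 or more counts, and replicate 1 was the high one. Rps4l stood at 1.98 and 0.853 CPM, 2.95 CPM and 0, with a replicate ratio of 2.33 (1.48 to 3.77). Stromal markers were higher in the same replicate, and their part was not tested. A count of 0 in the neutrophil library allows up to 0.469 CPM. Rpl32l stood at 1.04 and 0.591, 4.83 and 6.10 CPM, and took 0.336% and 0.207% of the counts with Rpl32 in the eosinophils against 13.5% (9.81 to 18.0) in the neutrophils. Like Rpl3l, it was highest in the library where the core genes were lowest.

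**Figure D5:**
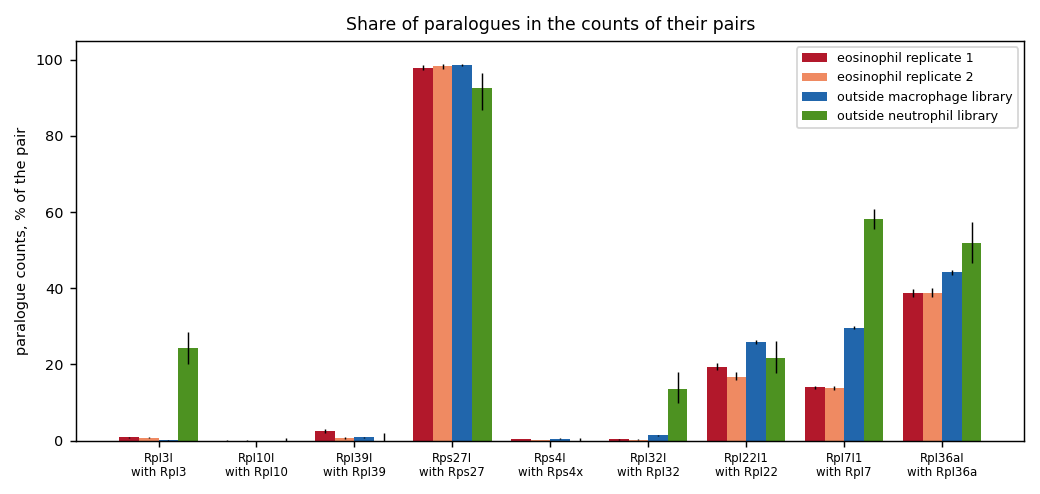
Counts of each paralogue as a percent of the counts of the paralogue and its parent, in each library; bars start at 0 and error bars are 95% exact binomial intervals. Rps27l takes nearly all counts of its pair in every library, and Rpl3l, Rpl32l, Rpl7l1 and Rpl36al take their largest shares in the neutrophil library.

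The plot of paralogue shares also holds the 3 copies outside the symbol rule. Rpl7l1, a nucleolar relative of Rpl7, stood at 93.4 and 91.6 CPM in the eosinophils, 167 CPM in the macrophages and 138 CPM in the neutrophils, and took 14.0% and 13.7%, 29.6% and 58.2% of its pair. Rpl22l1 stood at 36.8 and 29.5, 66.2 and 13.6 CPM. Rpl36al, which encodes nearly the same protein as Rpl36a, stood at 87.3 and 76.4, 89.2 and 28.0 CPM, taking 38.7% and 38.8% of its pair in the eosinophils and 52.0% (46.6 to 57.4) in the neutrophils. Rpl7l1 did not follow its parent into the neutrophil library, while Rpl22l1 and Rpl36al were lower there.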

How the data were processed

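Per the labels' protocols, the 2 RNA libraries followed a stranded messenger RNA kit. The deposited values are whole-number counts per gene, without normalization. Named without roles in the submitters' processing notes are featureCounts, STAR 2.5, Trim Galore 0.4.2, FastQC 0.11.7, Picard 1.89 and mm9. Strand setting and treatment of reads with several matches: not given in the sources used here.

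CPM is a count over its file's total. Totals were 40306679 and 30465490 counts (eosinophil), 106940777 (macrophage) and 6390310 (neutrophil). Of the symbols in the outside libraries, 26 did not match (spreadsheet dates) and left the joint comparisons. Python 3.11.15, scipy 1.17.1, R 4.3.3, edgeR 4.0.16 and DESeq2 1.42.0 were used, the last 2 for scaling only. Intervals are exact (95%): Clopper-Pearson for shares, conditional binomial for ratios of 2 libraries. The scripts were tested on simulated data. No test was made: 1 group has 2 libraries and each outside type 1. Promoter sequences are from RefSeq (GRCm38.p6). Peak lists were not used here, since no gene positions on mm9 were at hand.

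The members and lists were chosen with earlier results of these data known. Named are the paralogues and parents, the stalk, Rpsa, Rack1, 9 fixed genes, the 3 core genes with the largest replicate ratio each way, and the 4 whose share of core counts differs most each way from each outside library, among genes with 10 or more counts. Ranking by level per length, also part of the rule, was not made because lengths were not at hand. The near-empty core genes, the genes named in other families and the treatment of Rpl32l as a paralogue were chosen after values were seen. One planned item is not reported here.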

Additional observations from a re-analysis of the deposited data

How the results depend on the processing

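No gene past 2-fold and neither median changed sign under the alternatives run. The share of counts, 2.52%, was 2.73% with the 6 family genes outside the symbol rule and 2.69% over totals without the 20 highest genes of each library. Against the macrophage library, the core median of 0.38 was 0.16 with TMM and 0.28 with DESeq2's size factors. Core genes lower there by any amount numbered 28 and 24 under these scalings, against 15. At 1.5-fold, 18 were higher and 5 lower, and at 4-fold 0 and 0, against 1 and 2. Leaving out a replicate gave 2 to 3 higher. Genes more than 2-fold lower numbered 3, against 2, with TMM, with DESeq2's size factors, with no minimum CPM and without replicate 2. Rpl35a had a log2 ratio of -0.93, and of -1.15 with TMM and -1.03 with DESeq2's size factors. Against the neutrophil library, the median of 2.64 was 2.95 with TMM and 2.82 with DESeq2's size factors. The count of genes lower there, 0, was 1 (Rps27) at 1.5-fold and 0 to 1 when a replicate was left out. A difference of over 25% between replicates was seen in 1 core gene (Rpl34), against 0, with TMM and with DESeq2's size factors. The cause was not tested. Of 62 log2 ratios of single genes, 58 moved by more than the spread between replicates with TMM and 50 with DESeq2's size factors. Rankings by CPM per length, and without short genes, were not run for want of lengths. No paired analysis was possible because the replicates form 1 group. In the neutrophil library 10 counts equal 1.56 CPM, so its low genes are imprecise.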
